A study of Mus musculus with 2 samples.

Results

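The rescued regulatory T (Treg) cells that were selected on a high Foxp3 transcript count were compared with those in which no Foxp3 transcript was counted. In the rescued library, 709 of 3390 cells held 4 or more Foxp3 UMIs (unique molecular identifiers, which count the RNA molecules captured from a cell) and are called Foxp3-high, and 958 cells held 0 and are called Foxp3-0. The other 1723 rescued cells held 1 to 3 Foxp3 UMIs and belonged to neither class, and the whole series held 7024 cells. The cells came from spleen and lymph node of male C57BL/6 mice at 7 months, all treated once on postnatal day 14 with 4-hydroxytamoxifen (4-OHT), which activates the recombinase CreERT2. The rescued library pooled 4 mice of the genotype Foxp3LSL/y Cd4creERT2, in which a loxP-flanked stop cassette keeps Foxp3 off until Cre excises it, and the restored allele produces a GFP-Foxp3 fusion protein. The control library, used below for 1 comparison, pooled 5 mice of the genotype Foxp3DTR-GFP/y Cd4creERT2, whose Foxp3 was never blocked. In both strains CreERT2 is driven from the Cd4 gene and also switches on a tdTomato reporter. Cells of both libraries had been selected for GFP by repeated flow cytometric sorting, so a count of 0 does not mark a cell without Foxp3 protein. The question addressed was which other genes differed in level between cells of the same rescued population that held many or no Foxp3 transcripts.

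Foxp3 is the transcription factor that defines Treg cells, the CD4 T cells that restrain immune responses. Treg cells make little interleukin 2 (IL-2) of their own and depend on IL-2 from other T cells, which they bind through the high-affinity receptor chain CD25, the product of Il2ra. The receptor signals through STAT5, which binds the Foxp3 gene as well as genes for feedback inhibitors and survival factors. Resting Treg cells recirculate through lymphoid organs and express factors such as TCF1, the product of Tcf7, whereas effector Treg cells take up homing receptors, KLRG1 and granzymes.

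The Foxp3 values that chose the cells are given as a description. Foxp3 (chromosome X, 7579676 to 7595243, GRCm38.p6) stood at 936 CPM (the count summed over a class and scaled to 1000000 UMIs) in Foxp3-high cells and at 0 in Foxp3-0 cells, and its level over all rescued cells was 468 CPM. At that level a cell with the median total of the library would hold 1.80 Foxp3 UMIs on average. The class is a range of a count and not a cell type, and 264 cells lay just inside the limit with 4 UMIs, 396 just outside it with 3, and 711 cells held the 1 UMI that kept them out of the Foxp3-0 class. Of the other Foxp3-high cells, 258 held 5 to 6 and 187 held 7 or more.

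Foxp3-high cells were the deeper cells. Their median total was 4988 UMIs and 2223 genes, compared with 3454 UMIs and 1708.5 genes in Foxp3-0 cells. The median total was 8064 UMIs in the 187 cells with 7 or more Foxp3 UMIs. Over 12000 UMIs there were 56 Foxp3-high cells and 1 Foxp3-0 cell. The median mitochondrial share was 8.49% in Foxp3-high and 9.61% in Foxp3-0 cells. Each gene was therefore compared by its share of all UMIs, and the comparison was repeated with UMIs matched, in 492 cells of each class with median totals of 4127 and 4115.5 UMIs. Whether a deeper cell held more RNA or was captured more completely cannot be told apart, and with 1 library no difference below had a replicate check.

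**Figure D1:**
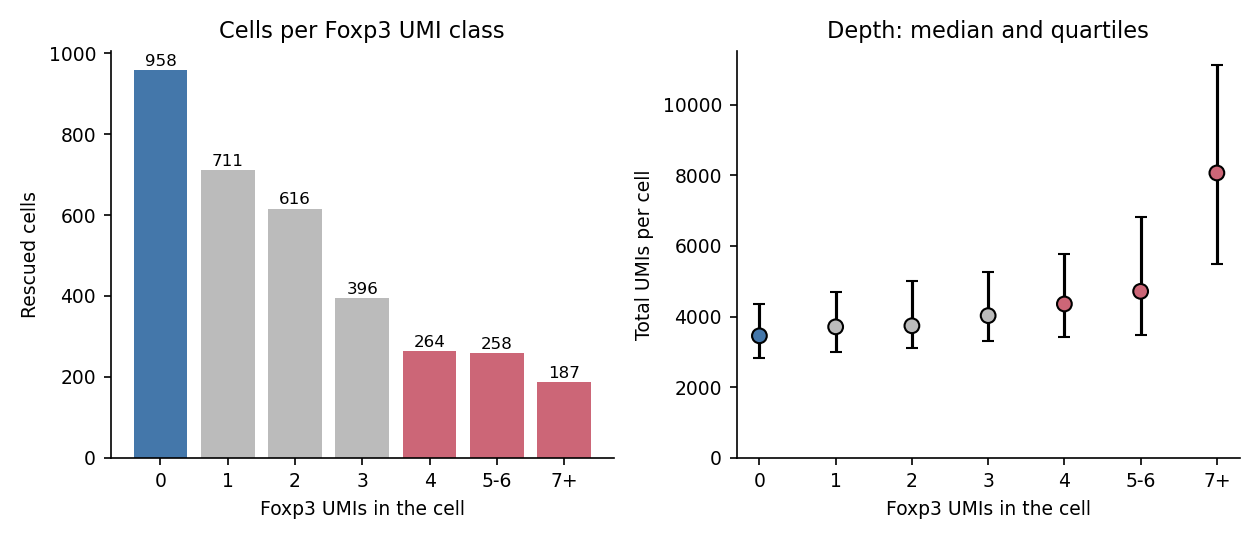
Rescued cells (left) and total UMIs per cell (right, point at the median, bars from the lower to the upper quartile) by the number of Foxp3 UMIs in the cell. Foxp3-0 cells are blue, cells of neither class grey and Foxp3-high cells red. The median total increased from 3454 UMIs in cells with 0 Foxp3 UMIs to 8064 in cells with 7 or more.

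Both classes carried the transcripts of Treg cells. Ikzf2, which encodes the Treg cell factor Helios, stood at 1821 CPM in Foxp3-high and 1597 CPM in Foxp3-0 cells, and Ctla4, an inhibitory receptor used in suppression, at 544 and 417 CPM. Markers of other cell types were counted in both classes. The 12 B cell markers summed to 455 and 357 CPM, the 14 myeloid markers to 231 and 218 CPM, the 10 CD8 T and NK cell markers to 49.7 and 40.1 CPM and the 7 red blood cell markers to 2.71 and 1.37 CPM. Among those not counted in either class were Itgam, Csf1r, Cd8a and Ncr1. Ighm, the immunoglobulin heavy chain gene of B cells, is not on the B cell list and was chosen after its values were seen. It stood at 1966 CPM in Foxp3-high and 1649 CPM in Foxp3-0 cells (0.25, 0.21 to 0.30, and 0.34 matched), with a UMI in 97.6% and 94.4% of cells, and at 823 CPM in the control library. Their part in the differences below was not tested.

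Of 5764 genes with at least 200 UMIs in both classes together, Foxp3 left out, 45 (0.781%) were at least 1.5-fold higher and 22 (0.382%) at least 1.5-fold lower in Foxp3-high cells after scaling by the cell total. With UMIs matched, 83 genes (1.44%) were higher and 55 (0.954%) lower. That comparison rests on fewer cells and has a wider spread: 90% of all genes lay between log2 ratios of -0.35 and 0.39, compared with -0.26 and 0.32 before matching. A total of 26 genes were past 1.5-fold higher and 15 past 1.5-fold lower both ways. The levels of most genes thus differed little, and the median log2 ratio of all 5764 genes was 0.02. Intervals below are exact 95% intervals for counting error only, and all log2 ratios are of Foxp3-high over Foxp3-0 cells.

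Genes of the IL-2 receptor pathway were higher in Foxp3-high cells, and their ratios were kept or grew when UMIs were matched. Il2ra stood at 459 CPM in Foxp3-high and 273 CPM in Foxp3-0 cells, a log2 ratio of 0.75 (0.64 to 0.86), and at 0.80 with UMIs matched. Il2rb, the signalling chain that the receptor shares with IL-15, stood at 347 and 236 CPM, with log2 ratios of 0.56 before and 0.57 after matching. Socs2, a member of the cytokine-induced inhibitors of JAK and STAT signalling, stood at 106 and 63.7 CPM (0.73, 0.50 to 0.97, and 0.97 matched). Cish, an inhibitor of the same family that STAT5 induces, stood at 224 and 142 CPM (0.65, 0.50 to 0.81, and 0.79 matched). Pim1, a survival kinase also induced by STAT5, stood at 761 and 499 CPM (0.61, 0.53 to 0.69, and 0.85 matched). For all 5 genes both ratios were positive, and the intervals before matching lay above 0. When the classes were set after every cell had been thinned to 2000 UMIs, Il2ra had 0.71, Socs2 0.65 and Pim1 0.64. Il2rb then had 0.28 and Cish 0.30, below their intervals before matching (0.44 to 0.68 and 0.50 to 0.81).

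Among the 19 genes listed for the pathway, 18 passed the minimum of 200 UMIs, and 4 of them were past 1.5-fold higher and 0 past 1.5-fold lower. The list had 16 members above and 2 below a log2 ratio of 0, with a median of 0.19, and 14 above and 4 below with a median of 0.30 when UMIs were matched. The 2 members below 0 before matching were Bcl2, an inhibitor of apoptosis, at -0.31, and Jak1, a kinase of the receptor, at -0.04, and both were named after their values were seen. Stat5a stood at 56.7 and 47.5 CPM (0.25, -0.03 to 0.54) and Stat5b at 84.7 and 76.9 CPM (0.14, -0.09 to 0.37), both with intervals that include 0.

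The promoters of these genes were searched for TTCNNNGAA, the spaced half-sites to which STAT dimers bind and which reads the same on both strands. RefSeq windows from 250 bases before to 50 bases after the start of transcription (GRCm38.p6) were at hand for 15 of the 19 listed genes, and 2 of their 20 windows held a match, in Cish and Socs3. Over all 32851 windows, 8.30% held a match and 0.457% held 2 or more. Cish held 2, beginning at bases 1 and 12 of the transcript. Windows were at hand for 6 of the 10 highest genes named below, and 2 of these 6 held a match, in Gzmb and Serpina3g. Fgl2, a Treg gene described below, also held 1, but the windows of the Treg list as a whole were not counted. The Cish window (chr9:107296409-107296688, plus strand) is shown because it holds the pair, and those of Serpina3g (chr12:104236077-104236176, plus strand) and Fgl2 (chr5:21372603-21372702, plus strand) because their matches lie before the start, at bases -33 and -36. Capitals mark the matches.
Cish: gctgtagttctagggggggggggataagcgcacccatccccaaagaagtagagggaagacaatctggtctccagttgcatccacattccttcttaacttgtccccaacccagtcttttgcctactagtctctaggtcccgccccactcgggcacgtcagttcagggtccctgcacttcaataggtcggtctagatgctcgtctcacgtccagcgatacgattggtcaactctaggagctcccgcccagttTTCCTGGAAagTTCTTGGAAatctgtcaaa
Serpina3g: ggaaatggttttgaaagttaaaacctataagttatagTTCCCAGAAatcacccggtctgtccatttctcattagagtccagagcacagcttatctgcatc
Fgl2: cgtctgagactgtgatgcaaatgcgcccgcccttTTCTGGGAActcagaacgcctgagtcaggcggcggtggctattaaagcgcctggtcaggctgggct
A match is a stretch of letters and does not show that a factor binds there.

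The Treg identity and suppressor genes were mostly higher. Of the 30 listed, 27 passed the minimum, 23 stood above and 4 below a log2 ratio of 0, 5 were past 1.5-fold higher and 0 past 1.5-fold lower, with a median of 0.38 (0.34 matched). Fgl2, which encodes a secreted suppressor protein, stood at 167 CPM in Foxp3-high and 96.9 CPM in Foxp3-0 cells (0.78, 0.60 to 0.97, and 1.03 matched). Lrrc32, which presents latent TGF-beta on the cell surface, stood at 210 and 149 CPM (0.49, 0.33 to 0.64, and 0.65 matched). Icos, a costimulatory receptor, stood at 764 and 524 CPM (0.54, 0.46 to 0.63, and 0.60 matched), and Itgae, the integrin chain CD103, at 383 and 280 CPM (0.45, 0.34 to 0.56, and 0.44 matched). For all 4 genes the ratio stayed within or above its counting interval when UMIs were matched. When the classes were set after every cell had been thinned to 2000 UMIs, Lrrc32 had 0.44, within its interval. Fgl2 then had 0.49, Icos 0.40 and Itgae 0.16, below theirs.

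Other genes of Treg identity ranged from higher to slightly lower in Foxp3-high cells. Ctla4 had a log2 ratio of 0.38 (0.29 to 0.48), Tnfrsf18, which encodes the receptor GITR, 0.35 (0.27 to 0.43), and Ikzf2 0.19 (0.14 to 0.24). For Nrp1, a marker of thymus-derived Treg cells, the levels were 450 and 437 CPM (0.04, -0.05 to 0.14), and for Ikzf4, which encodes the factor Eos, 186 CPM in both classes (0.00, -0.15 to 0.15). Izumo1r, which encodes the folate receptor 4, was slightly lower at 1407 and 1502 CPM (-0.10, -0.15 to -0.04, and 0.02 matched), as were Nt5e, the ectoenzyme CD73, at 213 and 247 CPM (-0.22, -0.35 to -0.08, and -0.04 matched) and Gpr83, a receptor of Treg cells, at 122 and 139 CPM (-0.19, -0.37 to -0.01, and -0.17 matched). Tnfrsf4, which encodes OX40, fell from a log2 ratio of 0.51 to 0.17 with matching.

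The ratio of a cytokine could rest on 1 cell. Areg, the tissue repair factor amphiregulin, stood at 36.1 and 38.7 CPM (-0.10, -0.44 to 0.24) but at a log2 ratio of 1.64 when UMIs were matched, and 1 Foxp3-0 cell held 109 of its UMIs. Il10, an anti-inflammatory cytokine, stood at 19.2 and 13.2 CPM (0.54, 0.01 to 1.08) and at -0.69 when UMIs were matched, and 1 Foxp3-high cell held 40 of its 133 UMIs. No direction is given for either gene.

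The 10 genes with the highest ratio among those with at least 300 UMIs, and with the same direction when UMIs were matched, were Gzmb, Klrg1, Ccr2, S100a6, Sytl2, S100a4, Arl5a, Serpina3g, Ccl5 and Neb. Gzmb, the cytotoxic protease granzyme B, stood at 80.8 CPM in Foxp3-high and 14.0 CPM in Foxp3-0 cells (2.53, 2.10 to 2.98, and 2.62 matched), and 1 Foxp3-high cell held 97 of its 409 UMIs. Klrg1, a receptor of terminally differentiated effector Treg cells, stood at 79.7 and 25.8 CPM (1.63, 1.29 to 1.97, and 1.14 matched). Ccr2, a chemokine receptor that guides cells to inflamed tissue, stood at 114 and 43.7 CPM (1.38, 1.12 to 1.65, and 1.23 matched). Ccl5, the chemokine RANTES, stood at 220 and 125 CPM (0.81, 0.65 to 0.97, and 1.11 matched). For these 4 genes both ratios were positive, and when the classes were set after every cell had been thinned to 2000 UMIs they were 2.04 for Gzmb, 1.09 for Klrg1, 0.50 for Ccr2 and 0.20 for Ccl5.

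Serpina3g, an inhibitor of proteases, stood at 375 and 210 CPM (0.83, 0.71 to 0.96, and 1.09 matched), and since it has near-identical relatives its reads may have been shared with them. Sytl2, which encodes a protein of vesicle transport, had 59.8 and 26.6 CPM (1.17, 0.83 to 1.52, and 1.15 matched). Arl5a, a small GTPase of the Golgi, had 201 and 95.3 CPM (1.08, 0.90 to 1.26, and 1.05 matched), and Neb, best known for the muscle protein nebulin, had 82.9 and 47.8 CPM (0.79, 0.53 to 1.06, and 0.90 matched). The ratios of these 4 genes were near or above their first values with UMIs matched, and with classes set after thinning they were 0.82 for Serpina3g, 0.63 for Sytl2, 0.57 for Arl5a and 0.56 for Neb.

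S100a6 and S100a4, calcium-binding proteins of activated and migrating cells, lost a large part of theirs. S100a6 stood at 1031 and 432 CPM (1.25, 1.17 to 1.34) and its log2 ratio with UMIs matched was 0.53. S100a4 stood at 869 and 397 CPM (1.13, 1.04 to 1.22), compared with 0.37 matched. The same was seen in other genes of the effector and tissue list. Lgals1, the lectin galectin-1, stood at 714 and 372 CPM (0.94, 0.85 to 1.03) and at -0.03 with UMIs matched. Anxa2, a membrane-binding annexin, went from 1.02 (0.71 to 1.34) to -0.07, Crip1, a LIM domain protein of effector T cells, from 0.62 (0.56 to 0.69) to -0.04, and Vim, the filament protein vimentin, from 0.74 (0.67 to 0.81) to 0.24. Gzma, or granzyme A, went from 1.14 (0.78 to 1.52) to -0.06, and 1 Foxp3-high cell held 84 of its 317 UMIs. Of the 25 genes on the list 17 passed the minimum, 10 were past 1.5-fold higher and 0 past 1.5-fold lower, with 14 above and 3 below 0. The median was 0.74 before and 0.20 after matching, with 9 above and 8 below 0 after it. With UMIs matched 4 members were past 1.5-fold higher and 1 past 1.5-fold lower. The 4 were Gzmb, Klrg1, Ccl5 and Areg, whose values are given above. Areg was not past 1.5-fold before matching, at -0.10, and no direction is given for it.

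**Figure D2:**
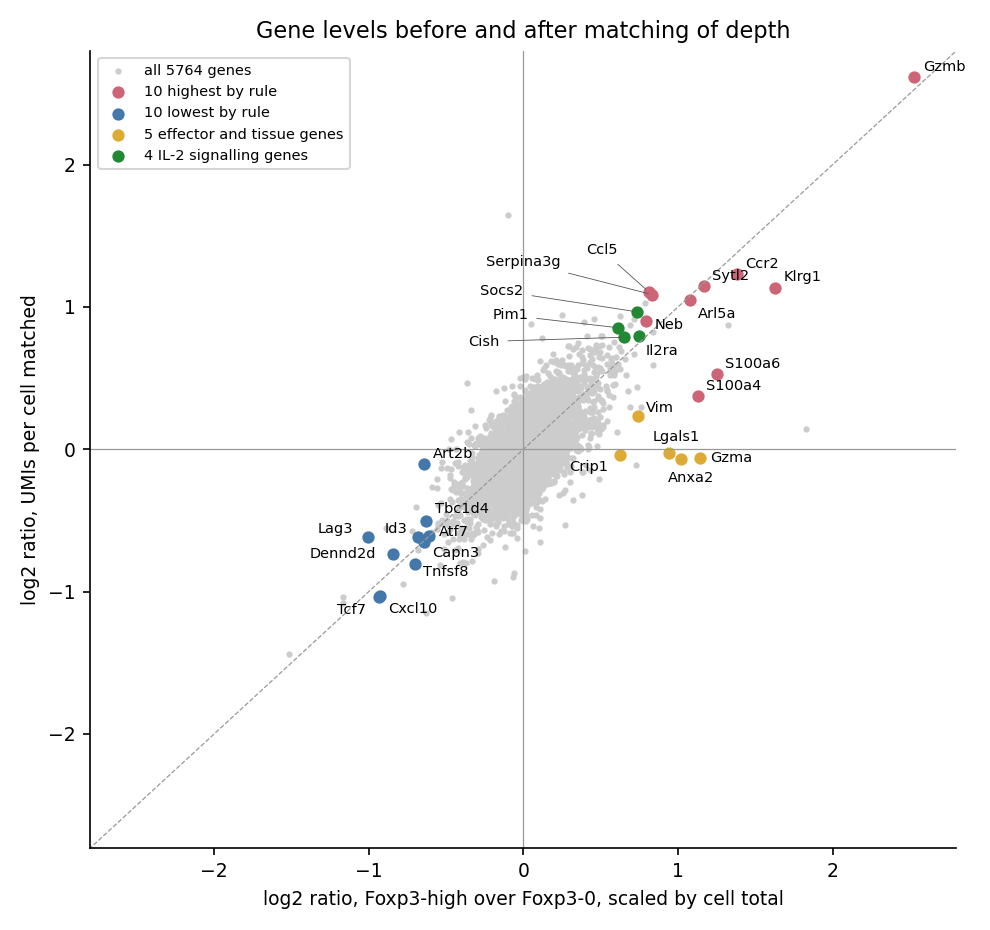
Each of 5764 genes by its log2 ratio of CPM, Foxp3-high over Foxp3-0 cells, scaled by the cell total (horizontal) and with UMIs per cell matched (vertical), and the dashed line marks equal ratios. Il2ra, Socs2, Cish and Pim1 (green) lie near or above the line at 0.79 to 0.97 on the vertical axis, whereas Gzma, Anxa2, Lgals1, Crip1 and Vim (yellow) lie below it, between -0.07 and 0.24.

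The 10 lowest genes by the same rule were Lag3, Tcf7, Cxcl10, Dennd2d, Tnfsf8, Id3, Capn3, Art2b, Tbc1d4 and Atf7. Tcf7 stood at 66.4 CPM in Foxp3-high and 127 CPM in Foxp3-0 cells (-0.93, -1.15 to -0.72, and -1.04 matched). Id3, an inhibitor of E proteins that marks resting and follicular Treg cells, stood at 190 and 306 CPM (-0.68, -0.82 to -0.55, and -0.62 matched). Lag3, an inhibitory receptor that binds MHC class II, stood at 57.6 and 116 CPM (-1.01, -1.24 to -0.78, and -0.62 matched). Lower values under matching were part of the rule that named these 3 genes, and they were also lower in the other settings tried, Lag3 least so, at -0.07 when the classes were set after every cell had been thinned to 2000 UMIs.

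Cxcl10, an interferon-induced chemokine, stood at 45.2 and 85.9 CPM (-0.93, -1.19 to -0.67, and -1.03 matched). It was counted in 64 of 709 Foxp3-high and 63 of 958 Foxp3-0 cells, so its lower level was not a lower share of cells. Of its 513 UMIs, 1 Foxp3-0 cell held 50 and 1 Foxp3-high cell 33. Without the cell with most UMIs the log2 ratio was -0.68. Tnfsf8, the ligand of CD30, stood at 40.0 and 65.1 CPM (-0.70, -0.99 to -0.42, and -0.80 matched). Tbc1d4, which regulates transport of the glucose transporter GLUT4 in other tissues, stood at 104 and 160 CPM (-0.63, -0.81 to -0.45, and -0.51 matched). Dennd2d, Capn3 and Atf7 had log2 ratios of -0.84, -0.64 and -0.61, and -0.74, -0.65 and -0.61 matched. Art2b, a surface ADP-ribosyltransferase, had -0.64 (-0.93 to -0.36) but only -0.11 when UMIs were matched, and 0.25 under a weighting of Foxp3-0 cells to the depth of Foxp3-high cells.

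Genes that Foxp3 is known to lower were mostly slightly lower, with Tcf7 and Id3 as the exceptions in size. Of the 22 genes listed, which include the cytokines of conventional T cells, 9 passed the minimum, 2 stood above and 7 below 0, 0 were past 1.5-fold higher and 2 past 1.5-fold lower, with a median of -0.17 (-0.19 matched). Lef1, a factor related to TCF1, stood at 130 and 151 CPM (-0.21, -0.38 to -0.04), Ptpn22, a phosphatase of T cell receptor signalling, at 206 and 231 CPM (-0.17, -0.30 to -0.03, and 0.01 matched), and Satb1, a chromatin organiser, at 110 and 111 CPM (-0.03, -0.22 to 0.17). Il7r, the IL-7 receptor chain that Treg cells express at a low level, went the other way at 466 and 408 CPM (0.19, 0.09 to 0.29, and 0.48 matched). The cytokine genes on the list, other than Tnf, fell under the minimum and are not described further.

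Resting and recirculation genes had 13 of 16 members over the minimum, 3 above and 10 below 0, with 0 past 1.5-fold higher, 3 past 1.5-fold lower and a median of -0.15 (-0.19 matched). Besides Tcf7 these were Igfbp4, an insulin-like growth factor binding protein of naive T cells, at 17.4 and 49.7 CPM (-1.52, -1.92 to -1.12, and -1.44 matched), and Actn1, an actin crosslinker, at 23.7 and 39.0 CPM (-0.72, -1.10 to -0.34, and -0.57 matched). One Foxp3-0 cell held 39 of the 258 Igfbp4 UMIs. Within clusters of like cells (below) the median of the list was 0.02, so its direction was not kept there, nor when Foxp3-0 cells were weighted to the depth of Foxp3-high cells (0.15). Of the 12 markers of conventional or follicular helper CD4 T cells only 3 passed the minimum, 1 above and 2 below 0 (median -0.32, -0.35 matched). Among those under it, Sostdc1, a secreted antagonist found in follicular T cells, was counted 5 times in Foxp3-high and 110 times in Foxp3-0 cells (1.13 and 30.2 CPM, -4.74, -6.39 to -3.48, and -4.26 matched). These UMIs lay in only 4 of 709 Foxp3-high and 20 of 958 Foxp3-0 cells, with up to 12 in 1 Foxp3-0 cell.

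The Tcf7 window that holds a forkhead motif is shown because Tcf7 was the lowest of the genes that Foxp3, a forkhead factor, is known to lower. The letters TGTTTAC or, on the other strand, GTAAACA were found in 3.65% of all windows. Of the 13 windows of the 10 lowest genes 1 held them, in Tcf7 (chr11:52282566-52282665, minus strand), beginning at base 2 of the transcript. None of the 6 windows of the 10 highest genes held them, and of the IL-2 list Pim1 and Prdm1 did. Capitals mark the match.
Tcf7: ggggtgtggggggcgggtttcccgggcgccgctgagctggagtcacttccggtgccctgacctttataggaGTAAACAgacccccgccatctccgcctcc

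For some genes the level changed along the whole range of Foxp3 counts and not only at its ends. The median total increased along the same classes, from 3454 to 8064 UMIs, and the classes were not matched for it. Il2ra stood at 273, 292, 368 and 393 CPM in cells with 0, 1, 2 and 3 Foxp3 UMIs, at 408 with 4, 430 with 5 to 6 and 525 with 7 or more. Klrg1 stood at 25.8, 35.2, 46.1 and 55.0 CPM in the first 4 of these classes, and at 63.2, 76.5 and 95.3 CPM in the others. Both genes thus had a higher value in each next class, and the cells just inside and just outside the limit differed little. Tcf7 stood at 127, 101, 83.4, 70.7, 67.1, 69.7 and 62.9 CPM in the same order, with most of the difference reached by 3 Foxp3 UMIs. Socs2 likewise stood at 63.7 CPM with 0 Foxp3 UMIs, 110 with 3 and 109 with 7 or more. S100a6, in contrast, increased most at the deep end, from 899 CPM with 5 to 6 Foxp3 UMIs to 1390 with 7 or more, the class with the median total of 8064 UMIs. Gzmb and Ccl5 had no steady increase. In the same order, Gzmb stood at 14.0, 13.8, 27.2, 56.6, 31.6, 69.0 and 129 CPM. Ccl5 stood at 125, 201, 211, 159, 174, 258 and 221 CPM.

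**Figure D3:**
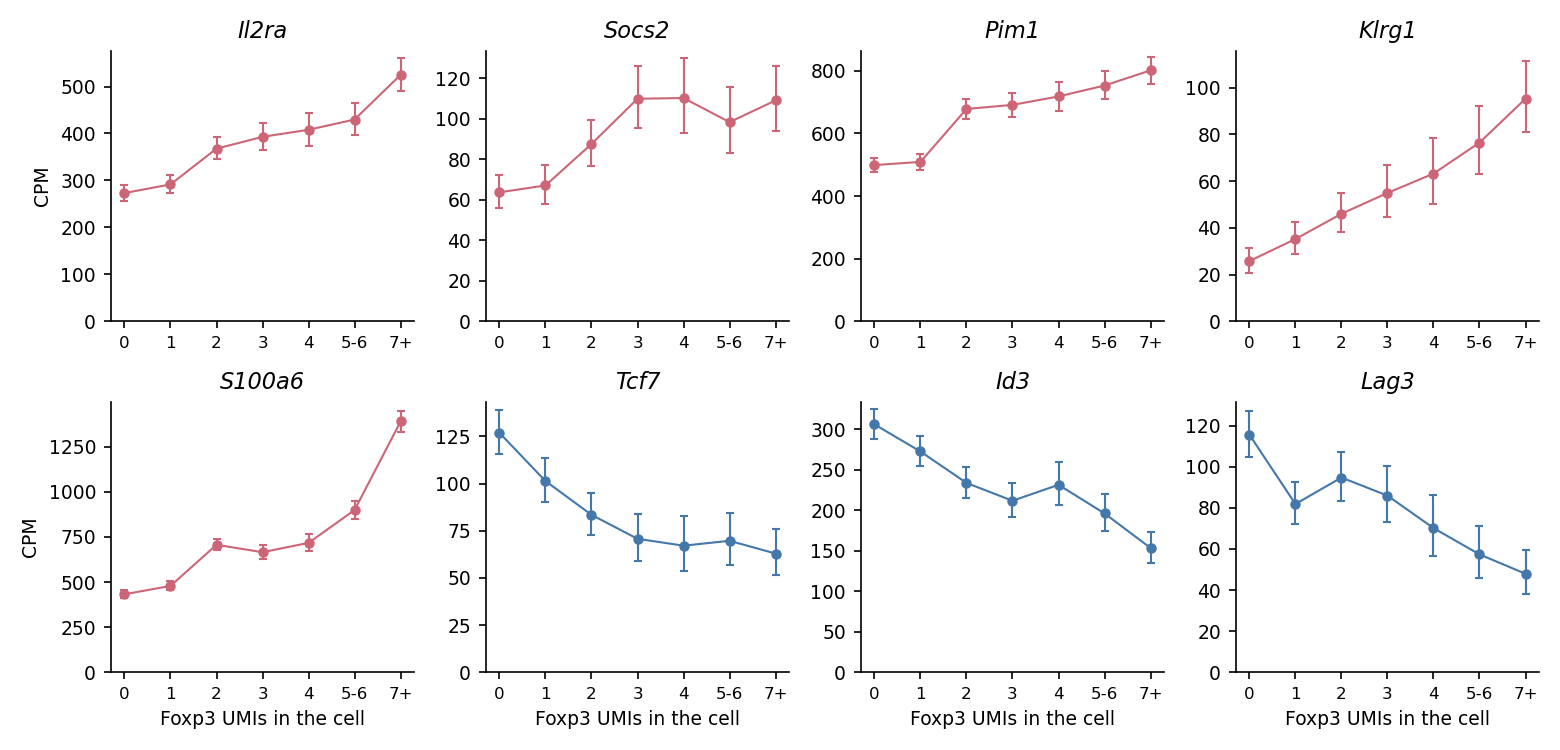
CPM of 8 genes (points, with exact 95% Poisson intervals for counting error) against the number of Foxp3 UMIs in the cell, rescued cells only, all axes from 0. Il2ra, Pim1, Klrg1 and S100a6 were highest in cells with 7 or more Foxp3 UMIs, and Tcf7, Id3 and Lag3 were highest in cells with 0.

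The factors that act on the Foxp3 gene or bind its protein were at nearly the same level in both classes. Of 36 listed, 32 passed the minimum, 22 stood above and 10 below 0, and the median was 0.06 (0.09 matched), with 1 past 1.5-fold higher and 0 past 1.5-fold lower. Runx1 and Cbfb, which form a complex with Foxp3, had log2 ratios of -0.09 (-0.27 to 0.10) and 0.01 (-0.22 to 0.24). Foxo1 and Bcl11b, needed for Treg cell development, had 0.12 (-0.03 to 0.27) and 0.03 (-0.06 to 0.12). Irf4, a factor of effector Treg cells, was the member past 1.5-fold at 39.1 and 23.1 CPM (0.76, 0.38 to 1.15, and 0.30 matched), and Ikzf3, which encodes Aiolos, came next among the members over the minimum at 172 and 122 CPM (0.50, 0.33 to 0.67, and 0.34 matched). Housekeeping and T cell identity genes, 20 of 20 over the minimum, had a median of -0.04 both before and after matching, with 0 past 1.5-fold in either direction.

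Activation and lineage genes were higher in part. Of the effector transcription factors 14 of 20 passed the minimum, 12 above and 2 below 0 (median 0.27, 0.19 matched), and Rora, the factor RORalpha of tissue Treg cells, was past 1.5-fold at 117 and 75.5 CPM (0.63, 0.42 to 0.85, and 0.69 matched). Of the immediate early genes of T cell receptor signalling 14 of 19 passed, 11 above and 3 below 0 (median 0.11, 0.24 matched), with Nr4a1, an orphan nuclear receptor induced by that signalling, at 40.6 and 24.7 CPM (0.72, 0.34 to 1.10, and 0.67 matched) and Dusp5, a phosphatase of ERK, at 32.5 and 19.5 CPM (0.74, 0.32 to 1.17, and 0.44 matched). Both lists also hold Irf4. Of the homing receptors 17 of 23 passed, 11 above and 6 below 0 (median 0.17, 0.08 matched), and Gpr55, a lipid receptor, was the second past 1.5-fold besides Ccr2, at 33.4 and 18.7 CPM (0.84, 0.42 to 1.28, and 0.82 matched). Ccr10, a skin homing receptor under the minimum, was counted 96 times in Foxp3-high and 7 times in Foxp3-0 cells (21.7 and 1.92 CPM, with an interval of the log2 ratio from 2.40 to 4.85, and 2.87 matched), and 1 Foxp3-high cell held 26 of its UMIs.

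The 10 activation genes and 5 genes of persisting cells that the study named, which it chose on these libraries and which are not independent evidence, all stood above 0 before matching, with medians of 0.38 and 0.46 (0.36 and 0.72 matched) and Il2ra as the only member past 1.5-fold before matching. With UMIs matched 4 of the 5 genes of persisting cells were past 1.5-fold higher. Of the inhibitory and costimulatory receptors 13 of 16 passed, 8 above and 5 below 0 (median 0.13, 0.17 matched), with Lag3 as the only member past 1.5-fold. Interferon response genes had 16 of 19 over the minimum, 13 above and 3 below 0 (median 0.19 both before and after matching), and dissociation stress genes 13 of 17, 4 above and 9 below (median -0.04, 0.06 matched), each with 0 past 1.5-fold. Growth genes for ribosome biogenesis, translation and metabolism, 22 of 24 over the minimum, had 13 above and 9 below 0 with a median of 0.04, but 1 above and 21 below with a median of -0.22 when UMIs were matched. Cell cycle genes had 13 of 22 over the minimum and a median of 0.07 (-0.18 matched). Stmn1, a microtubule regulator of dividing cells, was past 1.5-fold with 173 and 40 UMIs (1.83, 1.33 to 2.36), compared with 0.14 when UMIs were matched.

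Genes beside Foxp3 on the X chromosome were examined because the rescued allele was altered there. Ccdc22 (chromosome X, 7593809 to 7605420) lies on the opposite strand and overlaps the end of Foxp3 by 1435 bases, so reads of the pair may be shared where counting did not use strand. It stood at 17.2 CPM in Foxp3-high and 38.4 CPM in Foxp3-0 cells (-1.16, -1.59 to -0.75, and -1.08 matched). Syp (7638580 to 7653256), which encodes the synaptic vesicle protein synaptophysin and lies 43.3 kb from Foxp3, stood at 7.90 and 23.9 CPM (-1.60, -2.21 to -1.01, and -1.77 matched). Ppp1r3f, a phosphatase subunit gene 5.39 kb away on the other side, had 82 and 92 UMIs (-0.45, -0.90 to -0.00). Ppp1r3fos, named by its symbol for the opposite strand of Ppp1r3f and chosen after its value was seen, had 96 and 146 UMIs (-0.89, -1.27 to -0.51, and -0.55 matched). These 4 genes were thus lower where Foxp3 was counted more often. Syp lies on the same strand as Foxp3, and neither Syp nor Ppp1r3f overlaps it (0 bases each). Whether reads of overlapping genes such as Ccdc22 and Foxp3 were shared between strands was not tested. Farther along, Prickle3 at 62.1 kb had -0.11 (-0.51 to 0.30), Plp2 at 72.7 kb -0.00 (-0.27 to 0.26), Gpkow at 102 kb 0.25 (-0.25 to 0.76) and Wdr45 at 127 kb 0.32 (-0.13 to 0.77). Otud5 at 244 kb and Timm17b at 304 kb had -0.00 (-0.26 to 0.25) and 0.03 (-0.21 to 0.26). Tfe3 at 167 kb had 0.08 (-0.30 to 0.47) and Pqbp1 at 299 kb -0.10 (-0.36 to 0.17). Pim2 at 283 kb had -0.46 (-1.03 to 0.10), on 52 and 59 UMIs, and Slc35a2 at 289 kb -0.34 (-0.84 to 0.15). Pim2 was thus about as low as Ppp1r3f, with an interval that includes 0. Of the 17 listed neighbours 7 passed the minimum, with a median of -0.00.

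The tdTomato reporter, which marks cells in which Cre was active, was slightly lower in Foxp3-high cells. It stood at 596 CPM in Foxp3-high and 715 CPM in Foxp3-0 cells (-0.26, -0.34 to -0.19) and at a log2 ratio of -0.49 when UMIs were matched. The ratio was -0.08 with classes set after thinning to 2000 UMIs, and -0.13 for 2 or more Foxp3 UMIs against 0. By rising Foxp3 count its level was 715, 622, 728, 695, 556, 602 and 621 CPM, which is no steady fall. A tdTomato UMI was found in 59.8% of Foxp3-high cells (exact binomial interval 56.1 to 63.4) and in 52.5% of Foxp3-0 cells (49.3 to 55.7), the deeper class having the larger share. With UMIs matched the order turned, at 51.2% in Foxp3-high cells (46.7 to 55.7) and 58.3% in Foxp3-0 cells (53.8 to 62.7).

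Rescued cells were grouped by their transcriptome into 12 clusters, with Foxp3 and tdTomato left out. As counted, Foxp3-high cells made up 40.1% of cluster 9, led by Ppp1r21 and Cxcr4, 37.3% of cluster 8, led by Gzmb, Klrg1 and Ccr2, and 11.1% of cluster 1, led by Ccl5 and Ifngr1. The median totals of these clusters were 5917, 4458 and 3074 UMIs. When each cell was thinned to 2000 UMIs, which left out 33 cells, and the limit was set at 2 Foxp3 UMIs, 24.2% of all rescued cells were past it. The share was then 36.6% in cluster 8 (30.8 to 42.8) but between 19.8 and 30.8% by its interval in cluster 9 (63 of 252 cells) and 24.8% in cluster 1 (21.2 to 28.6). It was lowest in cluster 5, led by Penk and Mettl1, at 15.6% (11.7 to 20.1), whose median total of 5659 UMIs was the second highest. The order of the clusters thus differed between these settings, which differ both in the thinning and in the limit, so the part of depth alone was not tested. The thinned shares of clusters 3 and 4 lay within the interval of cluster 5, and those of the other 9 clusters above it.

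**Figure D4:**
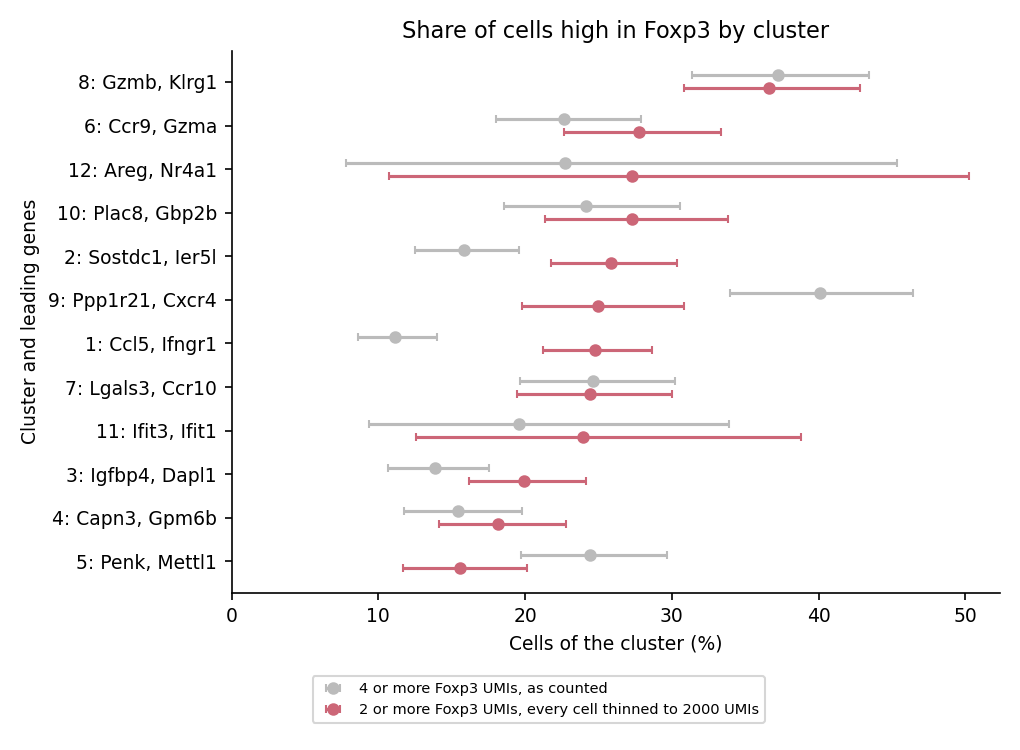
Share of cells high in Foxp3 in each of 12 clusters of rescued cells, as counted (grey, 4 or more Foxp3 UMIs) and with every cell thinned to 2000 UMIs (red, 2 or more), and bars are exact 95% binomial intervals. Cluster 8 stood at 37.3% as counted and 36.6% thinned, whereas cluster 9 stood at 40.1% as counted and lower, at 63 of 252 cells, thinned.

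Since the classes may differ in the clusters they draw from, ratios were also taken within clusters. Gzmb then had a log2 ratio of 1.47, Klrg1 1.21, Il2ra 0.62, Pim1 0.56, Socs2 0.54, Cish 0.49, Tcf7 -0.68, Id3 -0.48 and Lag3 -0.79. All kept the direction they had over all rescued cells, and every one of these ratios was smaller in size.

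The same contrast was made in the control library, where Foxp3 stood at 80.9 CPM and 9 of 3634 cells held 4 or more UMIs, too few for the class. Cells with 1 or more Foxp3 UMIs were therefore compared with cells with 0, in 956 against 2678 control cells and in 2432 against 958 rescued cells. The Foxp3 transcripts of the libraries come from different engineered alleles, and the difference between libraries was not tested. Il2ra had a log2 ratio of 0.54 in control and 0.50 in rescued cells, Socs2 0.50 and 0.54, Serpina3g 0.62 and 0.62, Ccl5 0.68 and 0.70 and Cxcl10 -0.67 and -0.58. For these 5 genes the intervals of the libraries overlapped. Tcf7 had -0.26 in control and -0.67 in rescued cells, and Id3 -0.11 and -0.45, in the same direction with intervals that do not overlap. With UMIs matched the Tcf7 intervals overlapped (-0.39 to -0.14 in control and -0.71 to -0.30 in rescued cells), and the Id3 interval in control cells included 0 (-0.18 to 0.03). Pim1 had 0.18 (0.10 to 0.26) in control and 0.42 (0.35 to 0.50) in rescued cells, Fgl2 0.22 (-0.04 to 0.47) and 0.60 (0.43 to 0.77) and Cish 0.31 and 0.43. Gzmb had 0.60 (0.18 to 1.01) in control and 1.79 (1.37 to 2.23) in rescued cells. With UMIs matched, Gzmb had 0.82 (0.28 to 1.38) in control and 0.45 (-0.09 to 1.00) in rescued cells. Klrg1 had 0.81 in control and 1.15 in rescued cells, and 0.43 and 0.63 with UMIs matched. The Treg identity list had a median of 0.26 in control and 0.29 in rescued cells, and the IL-2 list 0.13 and 0.16.

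Other genes went apart. S100a6 had a log2 ratio of -0.10 (-0.19 to -0.01) in control cells and 0.82 (0.74 to 0.90) in rescued cells, S100a4 -0.02 and 0.75, Ccr2 0.03 and 0.83 and Sytl2 -0.05 and 0.84. With UMIs matched the ratios in control and rescued cells were -0.53 and 0.10 (-0.00 to 0.20) for S100a6, -0.40 and 0.27 for S100a4, -0.47 and 0.18 (-0.14 to 0.49) for Ccr2 and -0.08 and 0.68 for Sytl2. Lag3 had 0.34 (0.16 to 0.53) in control and -0.60 (-0.77 to -0.43) in rescued cells. With UMIs matched it had 0.04 (-0.18 to 0.26) and -0.46. Of the 10 highest genes 7 stood above 0 in control cells, where 57.8% of all genes did, and of the 10 lowest 9 stood below 0, where 42.2% of all genes did. In the rescued library the median totals of cells with and without a Foxp3 UMI were 4042.5 and 3454 UMIs, and in the control library 3980 and 3674.5 UMIs.

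**Figure D5:**
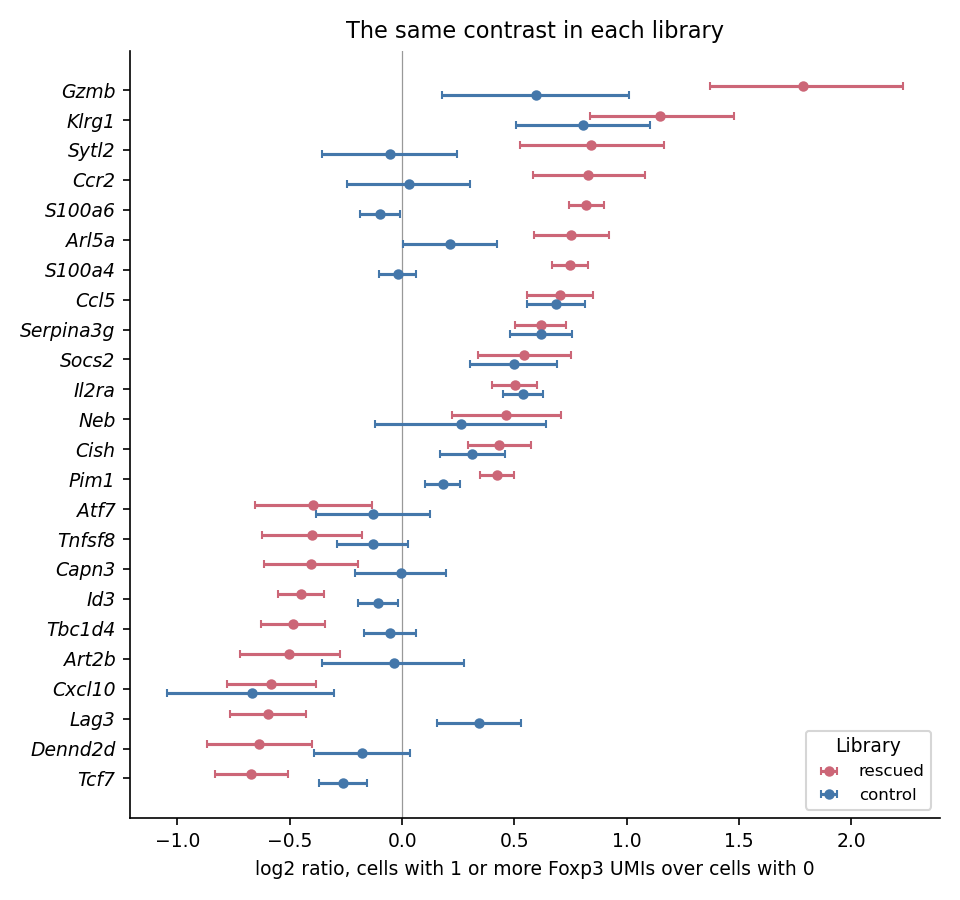
Log2 ratio of CPM between cells with 1 or more Foxp3 UMIs and cells with 0, in the rescued (red) and the control library (blue), for the 10 highest and 10 lowest genes and Il2ra, Socs2, Cish and Pim1, and bars are exact 95% intervals for counting error. Il2ra and Serpina3g coincide in both libraries, whereas S100a6 and Lag3 lie on opposite sides of 0.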

How the data were processed

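Sorted Treg cells had been made into 1 10x Chromium 3′ v3 library per group. Reads were counted by the authors in Cell Ranger 3.0 against GRCm38 with the tdTomato sequence added, and their processing notes also list Seurat 3.1.5. Whether counting used strand is not given in the sources used here. They deposited whole-number UMI counts for 7024 cells and 16098 genes, without normalization, which were used as deposited. Their log2 table was not used. The rescued and control libraries held 15537656 and 15446201 UMIs, with medians of 3846.5 and 3739.5 per cell, and 3 cell barcodes were found in both libraries, 2 of them in cells of the compared classes.

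The class limits, members and gene lists were chosen with earlier results of these data known. For each class, the UMIs of a gene over all its cells were divided by the class total (CPM). Ratios carry conditional exact, sums exact Poisson and shares Clopper-Pearson intervals at 95%, which cover counting error only. No test was run. UMIs were matched by drawing equal numbers of cells from each class in 20 bins of cell total. Genes named were the 10 highest and 10 lowest ratios of genes that had 300 UMIs or more and kept their direction when matched, without mitochondrial, ribosomal, immunoglobulin or antigen receptor genes, together with all genes with at least 100 UMIs of the Treg, Foxp3-repressed and Foxp3-partner lists and, of other lists, those past 1.5-fold. Not all of the latter are described. Doublets were not removed. Alternatives left out the highest 3.5% of Scrublet scores or of UMI totals. Clusters came from 2000 variable genes, 30 components, 15 neighbours and Leiden at resolution 1. Calculations used Python 3.11.15, numpy 2.4.6, scipy 1.17.1, pandas 2.3.3, leidenalg 0.10.2 and scanpy 1.11.5, and the scripts were tested on simulated data. Gene positions and promoters are from RefSeq (GRCm38.p6), matched by symbol.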

Additional observations from a re-analysis of the deposited data

Results flagged for a closer look

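S100a6, Lag3 and Syp had ratios of opposite sign in the 2 libraries, with counting intervals clear of 0 and at least 1.5-fold apart, when cells with 1 or more Foxp3 UMIs were compared with cells with 0; the difference between the libraries was not tested. S100a6 stood at -0.10 in control and 0.82 in rescued cells, and at -0.53 and 0.10 (-0.00 to 0.20) with UMIs matched. Lag3 stood at 0.34 in control and -0.60 in rescued cells, and at 0.04 (-0.18 to 0.26) and -0.46 with UMIs matched. Syp, a neighbour of Foxp3, stood at 0.44 (0.03 to 0.85) in control cells, on 82 and 143 UMIs. In rescued cells Syp stood at -1.07 (-1.47 to -0.67). With UMIs matched its ratios were 0.16 (-0.31 to 0.64) in control and -1.13 in rescued cells. Each of these genes thus had a matched interval that includes 0 in 1 of the libraries.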

How the results depend on the processing

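The limit on gene level, the class limits and the number of cells set the counts of genes past 1.5-fold. The 45 higher and 22 lower genes became 83 and 55 with UMIs matched, 88 and 51 in cells with a tdTomato UMI, 79 and 49 at 6 or more Foxp3 UMIs, and 26 and 10 at 2 or more. With at least 50 UMIs per gene they were 194 and 142, and with at least 500 UMIs 21 and 5. The lower genes numbered 49 when classes were set after thinning to 2000 UMIs, 41 without cells over 10% mitochondrial UMIs and 35 with both classes weighted to the same UMI bins, an alternative chosen after the data were seen. Fewer cells per class widen the spread of ratios by construction; other causes were not tested.

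The median of the effector and tissue list, 0.74, went to 0.20 with UMIs matched, 0.20 with UMI bins weighted, 0.21 after thinning, 0.45 within clusters, 0.52 without the 3.5% deepest cells, 0.52 at 2 or more Foxp3 UMIs, 0.60 as a mean of CPM per cell and 0.85 at 6 or more. The Treg identity median, 0.38, was 0.20 after thinning, and in rescued cells with 1 or more Foxp3 UMIs it was 0.094 with UMIs matched, compared with 0.29. The resting list reversed within clusters, at 0.020. The median totals in cells with a tdTomato UMI were 5836.5 and 3615 UMIs in Foxp3-high and Foxp3-0 cells.

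A weighting of Foxp3-0 cells alone to the UMI bins of Foxp3-high cells was tried first, and the weighting of both classes replaced it after its result was seen. It gave 374 higher and 191 lower genes, medians of 0.44 for the effector and tissue list and 0.15 for the resting list, which reversed, and reversed ratios for Art2b (0.25), Nt5e (0.027), Ebi3 (-0.40), Anxa2 (-0.10) and Stmn1 (-1.02). Its highest bin held 3 Foxp3-0 and 81 Foxp3-high cells, so those 3 cells carried a large weight.

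Of single results, ratios reversed with UMIs matched for Izumo1r (0.023), Il10 (-0.69), Lgals1 (-0.028), Ptpn22 (0.0067), Gzma (-0.063), Anxa2 (-0.072) and Crip1 (-0.037). With UMI bins weighted they reversed for Izumo1r (0.0099), Il10 (-0.70), Crip1 (-0.0018) and Stmn1 (-0.19). After thinning they reversed for Atf7 (0.057), Nt5e (0.085), Il10 (-0.95), Lef1 (0.00039), Ptpn22 (0.13), Gzma (-0.13), Lmna (-0.74), Nkg7 (-0.23) and the conventional CD4 list (0.26). Il10 also reversed as a mean of CPM per cell (-0.10), without the deepest cells (-0.26) and without its top cell (-0.38). These are ratios whose counting interval excluded 0 at first. Among those whose interval included 0, thinning turned Stat5a (0.25 to -0.17), Stat5b (0.14 to -0.07), Foxo1 (0.12 to -0.17) and Runx1 (-0.09 to 0.13), and matching turned Foxo1 (-0.01), Cbfb (0.01 to -0.18) and Runx1 (0.13). Of the 20 genes named by rank, Atf7 and Art2b changed direction in 1 of 14 alternatives each; matching, 1 of the 14, could turn none of them, since the same direction under it was part of the rule. No paired analysis was possible because there was only 1 library in a group. With 1 library, differences between mice, captures or days cannot be told from those between cells.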
